A study of Homo sapiens with 4 samples.

Results

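Integrins and laminins are the receptor and matrix sides of cell adhesion to the basement membrane, and the levels of their subunit transcripts were compared here in 2 human gastric cancer cell lines. The members were all protein-coding rows of the deposited gene table named as an integrin alpha or beta chain or as a laminin alpha, beta or gamma chain. The rule finds 38 of 58336 genes, and 37 of them are described here, 26 integrin chains (18 alpha and 8 beta) and 11 laminin chains. The series holds 4 RNA sequencing libraries, 1 each of AGS with estradiol (E2, 10 nM for 1 day), HGC-27 with the same estradiol treatment, AGS control and HGC-27 control. AGS was derived from a gastric adenocarcinoma and grows as an epithelial sheet, and HGC-27 comes from a gastric carcinoma described as undifferentiated. All 4 libraries carry the genotype label WT, and the control label is nc, with the vehicle not given in the sources used here. Each kind of cell is represented by a single established line, and the labels do not say whether libraries came from separate cultures, so p-values measure only the spread between these libraries, which may be technical.

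Integrins are receptors of 1 alpha and 1 beta chain that span the plasma membrane and tie the cytoskeleton to the matrix or to other cells. The alpha chain largely sets the ligand, and the beta chain recruits talin, kindlin and other adaptors. Laminins are trimers of an alpha, a beta and a gamma chain that assemble inside the cell, are secreted and form a sheet of the basement membrane on which epithelia stand. In epithelia laminin with LAMA3 and LAMB3 is a classical anchor of the cell base, bound by the pair of ITGA6 with ITGB4 in hemidesmosomes and by ITGA3 with ITGB1. LAMA2 and LAMA4 are known from the basement membranes of muscle and vessels, and fibronectin and fibrillar collagen are held by other alpha chains.

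The libraries held 24597379 to 28734374 counts. Levels are given as RPKM, which are counts scaled by the deposited gene length and by the TMM-scaled library size, so that different genes can be set side by side. A count of 3, used as the floor for a gene at 0, corresponds to 0.104 to 0.12 CPM, the same scale without the gene length. The deposited length exceeds the longest coding transcript unequally, with 6011 against 3784 bases for ITGB1 and 8406 against 7889 for LAMC1. Ranks and shares of genes within a library therefore depend on the length used. All 10 epithelial markers were higher in AGS, with a summed level of 6698 and 6377 CPM in its estradiol and control libraries, against 77.5 and 73.6 CPM in those of HGC-27. Of 10 mesenchymal markers, 9 were tested and 9 were lower in AGS. The summed level of the 10 was 9.66 and 7.54 CPM in its estradiol and control libraries, against 2189 and 2168 CPM in those of HGC-27. VIM carried most of the HGC-27 sums, with 1366 CPM (E2) and 1356 CPM (control). The marker not tested, CDH2, was near 0 in HGC-27 too, with 0 (E2) and 4 counts (control), against 11 (E2) and 5 counts (control) in AGS. Of 7 fibroblast markers, 7 were lower in AGS (10.6 and 12.7 CPM, against 4899.5 and 4665 CPM in HGC-27). These marker lists move with the line, and their part in the subunit differences between the lines cannot be told apart from it. In a bulk library, fewer cells that make a transcript and less transcript per cell cannot be told apart.

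**Figure D1:**
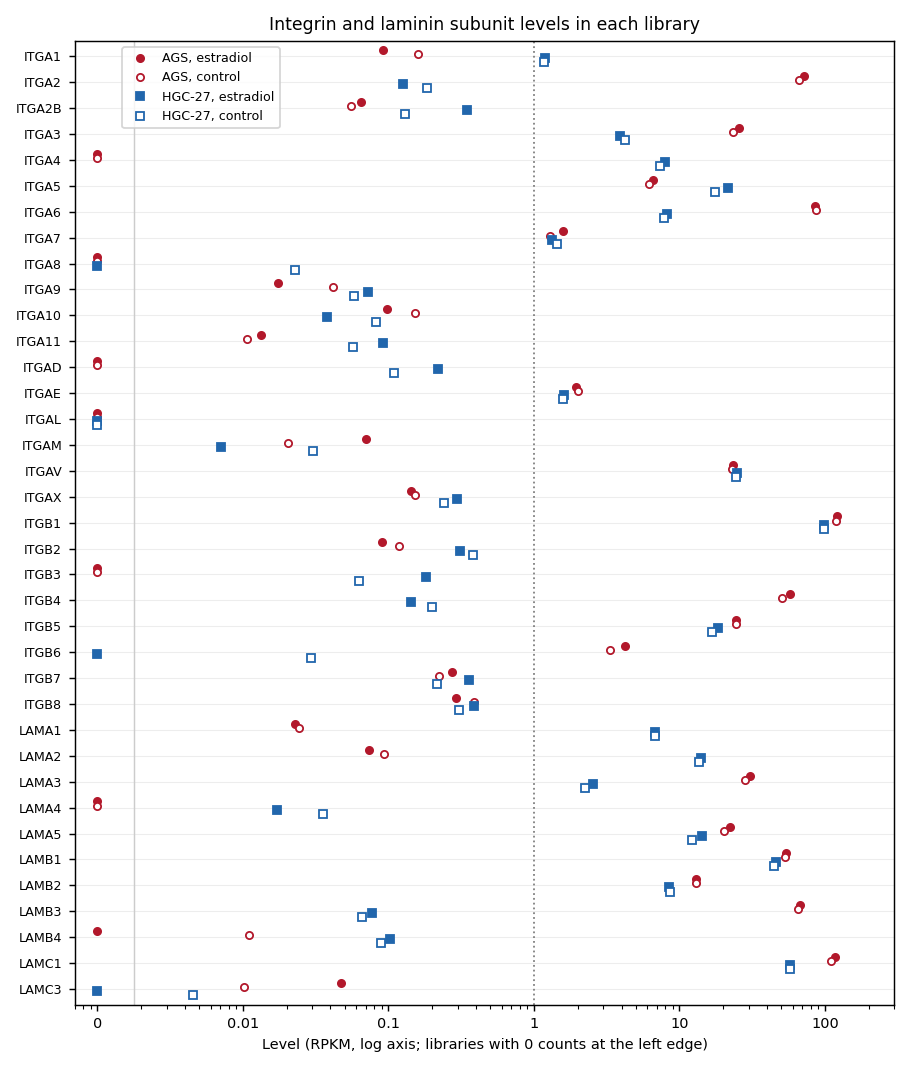
Level of 37 subunits in the 4 libraries, in RPKM on a log axis, with circles for AGS, squares for HGC-27, filled symbols for estradiol and open symbols for control. The dotted line marks 1 RPKM, and libraries with 0 counts stand at the left edge. LAMB3, ITGA2, ITGB4 and ITGB6 lie right of the line in AGS and left of it in HGC-27, and LAMA1, LAMA2, ITGA4 and ITGA1 lie the other way round.

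The first comparison asked how the subunits of AGS differ from those of HGC-27. AGS had higher levels of the chains of the epithelial anchor (LAMA3, LAMB3, ITGA6, ITGB4 and ITGA3), of the collagen-binding chain ITGA2 and of ITGB6. Lower in AGS were the laminin chains LAMA1 and LAMA2 and the integrin chains ITGA4, ITGA1 and ITGA5. The common chains ITGB1, ITGB5, LAMB1, LAMB2, LAMA5 and LAMC1 were well measured in both lines and were higher in AGS by log2 differences of 0.25 (LAMB1) to 0.99 (LAMC1). Of the 37 members, 31 passed the filter on low counts. Of these, 14 were higher and 11 lower in AGS, and 6 did not pass (edgeR quasi-likelihood test with estradiol as a covariate, adjusted p under 0.05 over all genes). The 31 include 9 members with a mean under 100 counts in each line, of which 6 were lower and 0 higher in AGS.

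These counts stand on a high background. Of the 18278 genes tested, 77.2% were called between the lines, 35.7% higher and 41.5% lower in AGS, and the members' 80.6% is close to that share. Called differences of at least 2 on the log2 scale were found for 14 of 31 tested members, 45.2%, against 27.8% of all genes. The median log2 difference of the tested members was 0.05, beside -0.10 for all genes, and setting the 2 members at 0 in AGS to their bound left it at 0.05. A member that passed the filter through 1 line alone, such as ITGA4 or ITGAD, had to differ, so these counts only describe the list. Called members with a mean of at least 100 counts in a line had edgeR adjusted p-values of at most 1.41e-06 (LAMB1), apart from ITGAE. Each gene has 1 residual degree of freedom in this fit, and the spread behind its SE is mostly shared over genes. The value given as SE throughout is the size of the log2 difference divided by the square root of the test's F statistic. It is not a standard error estimated by the fit. It can be smaller than the counting error where a line has few counts, as for LAMB3 with 9 in each HGC-27 library.

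**Figure D2:**
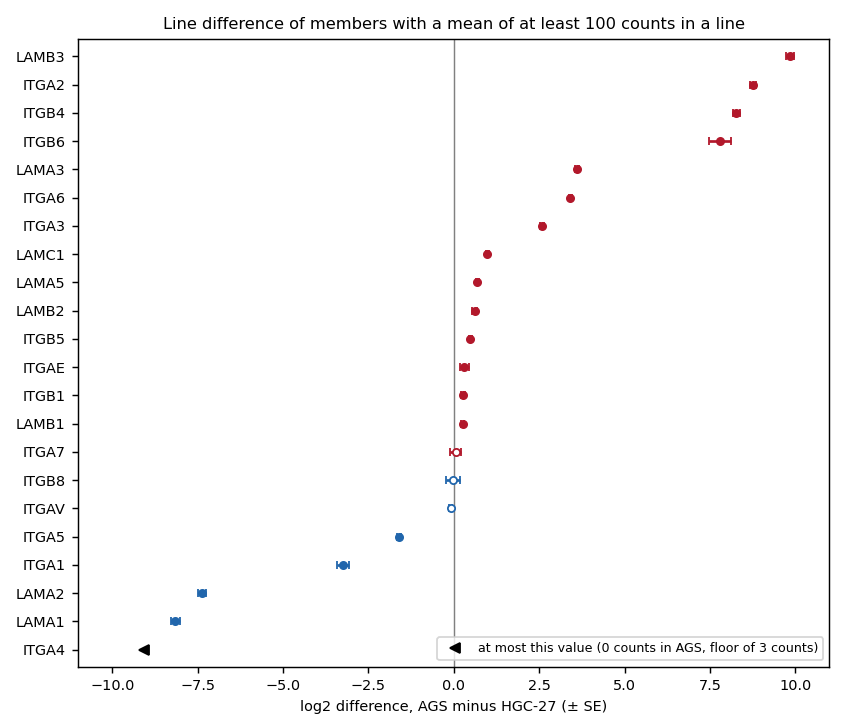
Fitted log2 difference, AGS minus HGC-27, with its SE for the 22 members with a mean of at least 100 counts in a line. The SE is derived from the F statistic and can be too small where a line has few counts. Filled points passed the test and open points did not, and the triangle is an upper bound for ITGA4, which had 0 counts in AGS. The differences run from 9.84 for LAMB3 to -8.15 for LAMA1, with the bound of ITGA4 below it.

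The epithelial laminin chains LAMA3 and LAMB3 were both higher in AGS. LAMB3, the beta chain (ENSG00000196878, chromosome 1, 209614870 to 209652466, minus strand), stood at 67.5 RPKM in the estradiol and 64.8 RPKM in the control library of AGS, against 0.0768 and 0.0664 RPKM in the estradiol and control libraries of HGC-27. The fitted log2 difference was 9.84 ± 0.12 (SE), with an edgeR adjusted p of 4.81e-249, and the mean CPM differed 924-fold. Each HGC-27 library held 9 counts of LAMB3. LAMA3, the alpha chain that the receptors bind (ENSG00000053747, chromosome 18, 23689443 to 23955066, plus strand), had 30.5 (E2) and 28.4 RPKM (control) in AGS, against 2.56 (E2) and 2.25 RPKM (control) in HGC-27, a smaller log2 difference of 3.62 ± 0.06 (SE). HGC-27 held 864 and 880 counts of the alpha chain in its estradiol and control libraries, beside that trace of LAMB3.

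Reference promoter sequences, which are not specific to either line, are shown for members with strong line differences so that their start regions can be set side by side. RefSeq windows (build GRCh38.p14, 250 bases before to 50 after a start) were matched by symbol for 26 of the 37 members. Printed are the 250 bases before the start for LAMB3, ITGA2 and ITGB6, the matched members with the largest differences toward AGS, for LAMA3 as the partner of LAMB3, and for LAMA2 and ITGA4, those with the largest differences toward HGC-27. The window of a gene with several starts is the one nearest to the deposited start. The windows are LAMA3 at chr18:23872770-23873019 (plus strand), LAMB3 at chr1:209652426-209652675 (minus strand), ITGA2 at chr5:52989102-52989351 (plus strand), ITGB6 at chr2:160200273-160200522 (minus strand), LAMA2 at chr6:128882888-128883137 (plus strand) and ITGA4 at chr2:181457136-181457385 (plus strand). Capitals mark matches on either strand of TGANTCA, the letters of the AP-1 site with any base in the middle, and of CAGGTG, the E-box bound by SNAI and ZEB factors.
LAMA3: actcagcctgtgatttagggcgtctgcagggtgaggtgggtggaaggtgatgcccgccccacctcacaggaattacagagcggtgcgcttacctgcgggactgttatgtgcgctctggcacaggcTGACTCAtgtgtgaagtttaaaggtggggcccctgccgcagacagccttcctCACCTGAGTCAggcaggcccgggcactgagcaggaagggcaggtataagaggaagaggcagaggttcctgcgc
LAMB3: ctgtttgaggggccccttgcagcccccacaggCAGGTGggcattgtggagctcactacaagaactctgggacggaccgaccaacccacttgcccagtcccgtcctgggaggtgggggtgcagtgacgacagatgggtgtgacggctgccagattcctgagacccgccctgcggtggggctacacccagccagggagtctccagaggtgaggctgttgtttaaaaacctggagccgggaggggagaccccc
ITGA2: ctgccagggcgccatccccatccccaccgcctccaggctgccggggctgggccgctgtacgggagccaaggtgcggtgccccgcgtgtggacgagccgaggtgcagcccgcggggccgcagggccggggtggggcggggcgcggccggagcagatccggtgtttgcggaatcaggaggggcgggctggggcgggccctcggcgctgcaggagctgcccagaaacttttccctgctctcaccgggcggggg
ITGB6: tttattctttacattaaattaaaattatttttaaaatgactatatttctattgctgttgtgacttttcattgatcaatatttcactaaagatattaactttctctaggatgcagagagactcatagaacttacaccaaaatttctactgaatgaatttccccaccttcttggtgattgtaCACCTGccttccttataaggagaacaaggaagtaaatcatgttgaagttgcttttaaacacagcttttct
LAMA2: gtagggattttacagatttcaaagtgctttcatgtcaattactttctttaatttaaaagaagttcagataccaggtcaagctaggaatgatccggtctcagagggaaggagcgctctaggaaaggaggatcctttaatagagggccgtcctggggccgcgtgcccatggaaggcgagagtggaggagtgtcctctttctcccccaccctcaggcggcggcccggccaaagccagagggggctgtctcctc
ITGA4: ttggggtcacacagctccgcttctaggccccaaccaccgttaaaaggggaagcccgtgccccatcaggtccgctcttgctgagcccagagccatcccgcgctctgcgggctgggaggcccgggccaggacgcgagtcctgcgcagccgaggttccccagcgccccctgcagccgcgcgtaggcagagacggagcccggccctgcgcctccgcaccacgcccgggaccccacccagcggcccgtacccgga

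The LAMA3 window held 2 matches of TGANTCA, and 1 of CAGGTG, which overlaps the match nearer to the start. The start of this window lies 183577 bases inside the deposited gene, so that it is an internal start of that gene, and the ITGA4 start lies 184 bases inside its own. LAMB3 and ITGB6 held 1 match of CAGGTG each, and of the other 2 LAMB3 windows 1 held a match of TGANTCA. The windows of ITGA2, LAMA2 and ITGA4 held neither. Over all 35116 windows of 300 bases in the table, TGANTCA was found in 7.71% and CAGGTG in 20.6%. In the nearest windows of the 26 matched members, TGANTCA was found in 2 (LAMA3 and ITGA5) and CAGGTG in 7. The palindromic oestrogen response element GGTCANNNTGACC was in 0 of the 26 and in 0.057% of all windows. The GC box GGGCGG was in 14 of the 26 and in 45% of all windows. A match is a string of letters and says nothing of binding in these cells.

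The receptors of that laminin followed the same direction. ITGB4, the hemidesmosomal beta chain with a long cytoplasmic tail (ENSG00000132470, chromosome 17, 75721328 to 75757818, plus strand), stood at 57.3 RPKM in the estradiol and 50.7 RPKM in the control library of AGS, against 0.142 and 0.199 RPKM in the estradiol and control libraries of HGC-27. Its log2 difference was 8.28 ± 0.10 (SE), and the mean CPM differed 317-fold. ITGA6, the alpha chain of the hemidesmosomal receptor (ENSG00000091409, chromosome 2, 172427354 to 172506282, plus strand), had 85.8 (E2) and 86.3 RPKM (control) in AGS, against 8.25 (E2) and 7.88 RPKM (control) in HGC-27, with a log2 difference of 3.42 ± 0.06 (SE). The difference was unequal within the pair: 1347 and 1490 counts of ITGA6 stood in the estradiol and control libraries of HGC-27 beside 24 and 39 of ITGB4. ITGA3, which pairs with ITGB1 and binds laminins with LAMA3 or LAMA5 (ENSG00000005884, chromosome 17, 50055968 to 50090481, plus strand), had 25.7 (E2) and 23.3 RPKM (control) in AGS, against 3.91 (E2) and 4.2 RPKM (control) in HGC-27, a log2 difference of 2.59 ± 0.06 (SE). ITGA7, another laminin-binding chain known from muscle, had 1.58 (E2) and 1.3 RPKM (control) in AGS, against 1.33 (E2) and 1.44 RPKM (control) in HGC-27, and these values overlapped (log2 difference 0.05 ± 0.16 (SE), edgeR adjusted p = 0.783).

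LAMA5, LAMB1, LAMB2 and LAMC1, the chains of the widespread epithelial and vascular laminins, were transcribed in both lines. LAMC1, the gamma chain shared by most trimers (ENSG00000135862, chromosome 1, 183023460 to 183145592, plus strand), had the highest level in each library among the laminin chains described here, with 117 (E2) and 109.9 RPKM (control) in AGS, against 57.5 (E2) and 57.2 RPKM (control) in HGC-27. It was higher in AGS by 0.99 ± 0.05 (SE) on the log2 scale. The first rank of LAMC1 in HGC-27 depends on the length used. LAMC1 has 8406 deposited bases and 7889 in its longest coding transcript, and LAMB1 has 8140 and 5766. With the longest coding transcript, LAMB1 would stand slightly above LAMC1 in each HGC-27 library, and LAMC1 would still lead in AGS. LAMB1, a beta chain of many trimers, had 54.4 (E2) and 53.4 RPKM (control) in AGS, against 45.8 (E2) and 44.6 RPKM (control) in HGC-27, a log2 difference of 0.25 ± 0.05 (SE). The exons of LAMB1 overlap those of DLD on the opposite strand over part of their length (3.57% with that gene and a clone-named one), and the strand setting of the counting is not given. LAMB2 had 13 (E2) and 13.1 RPKM (control) in AGS, against 8.52 (E2) and 8.63 RPKM (control) in HGC-27 (log2 difference 0.61 ± 0.07 (SE)), and LAMA5, the alpha chain of most adult epithelial basement membranes, had 22.4 (E2) and 20.3 RPKM (control) in AGS, against 14.4 (E2) and 12.2 RPKM (control) in HGC-27 (log2 difference 0.69 ± 0.05 (SE)). None of these chains differed 2-fold in mean CPM, and LAMC1 came nearest at 1.98-fold.

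The laminin alpha chains of HGC-27 included 2 that AGS held as traces. LAMA2, the alpha chain of muscle laminin (ENSG00000196569, chromosome 6, 128883141 to 129516569, plus strand), stood at 0.0733 RPKM in the estradiol and 0.0929 RPKM in the control library of AGS, against 14 and 13.7 RPKM in the estradiol and control libraries of HGC-27. Its log2 difference was -7.38 ± 0.12 (SE), and the mean CPM was 166-fold higher in HGC-27. LAMA1, the alpha chain of early embryonic basement membranes (ENSG00000101680, chromosome 18, 6941744 to 7117814, minus strand), had 0.0228 (E2) and 0.0242 RPKM (control) in AGS, against 6.79 (E2) and 6.76 RPKM (control) in HGC-27, a log2 difference of -8.15 ± 0.14 (SE). AGS held 10 counts of LAMA1 in each library. LAMA4, LAMB4 and LAMC3 had at most 18 counts in any library. LAMA4, a chain of vessel walls, had 0 (E2) and 0 counts (control) in AGS, against 5 (E2) and 12 counts (control) in HGC-27, and the mean CPM was at least 2.75-fold lower in AGS with a floor of 3 counts per library. LAMB4 had 0 (E2) and 2 counts (control) in AGS, against 18 (E2) and 18 counts (control) in HGC-27, and passed the test as lower in AGS. Its fitted log2 difference of -4.01 was -7.19 without the AGS control library, which leaves AGS at 0 counts, and -3.04 without the AGS estradiol library. LAMC3 had 10 (E2) and 2 counts (control) in AGS, against 0 (E2) and 1 counts (control) in HGC-27, too few to be tested.

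Among the collagen receptors, the lines differed in opposite directions. ITGA2 (ENSG00000164171, chromosome 5, 52989326 to 53094779, plus strand), the collagen-binding chain of epithelia and platelets, stood at 71.3 RPKM in the estradiol and 65.9 RPKM in the control library of AGS, against 0.126 and 0.184 RPKM in the estradiol and control libraries of HGC-27. Its log2 difference was 8.76 ± 0.10 (SE), the largest of the integrin chains toward AGS. ITGA1 (ENSG00000213949, chromosome 5, 52787896 to 52959210, plus strand), a collagen and laminin receptor of mesenchymal cells, had 0.0916 (E2) and 0.16 RPKM (control) in AGS, against 1.19 (E2) and 1.17 RPKM (control) in HGC-27, a log2 difference of -3.25 ± 0.16 (SE). Exons of PELO lie within ITGA1 on the same strand and 5.63% of the exon bases of ITGA1 are shared with it and a clone-named gene. PELO itself had 734 to 832 counts per library, so that the low counts of ITGA1 in AGS carry that uncertainty. ITGA10 and ITGA11, the collagen receptors of cartilage and fibroblasts, had at most 25 counts in a library. ITGA11 passed as lower in AGS (4 (E2) and 3 counts (control) in AGS, against 25 (E2) and 18 counts (control) in HGC-27), with a log2 difference of -2.59 ± 0.76 (SE), but not without the HGC-27 estradiol library (log2 difference -2.22, edgeR adjusted p = 0.0663), where fewer libraries enter and the difference is nearly as large. ITGA10 did not pass.

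ITGB1, the partner of 12 alpha chains (ENSG00000150093, chromosome 10, 32900319 to 33005792, minus strand), was the integrin chain with the highest level in every library. It had 120.2 (E2) and 118 RPKM (control) in AGS, against 98.6 (E2) and 99.2 RPKM (control) in HGC-27, and was higher in AGS by 0.27 ± 0.05 (SE) on the log2 scale. Of the 31-base stretches of its longest transcript, 15.9% also occur in other genes, mainly in the processed pseudogene AC022149.1, which had 0 counts in all libraries. The treatment of reads with several matches is not given, so this 0 does not show whether reads of the shared stretches were counted for ITGB1. ITGAV (ENSG00000138448, chromosome 2, 186590065 to 186680901, plus strand), the alpha chain of the receptors for vitronectin and latent TGF-beta, had 23.4 (E2) and 22.9 RPKM (control) in AGS, against 24.9 (E2) and 24.6 RPKM (control) in HGC-27. These values differed little (log2 difference -0.10 ± 0.05 (SE)), and the difference passed the threshold only when libraries were scaled by their totals alone (log2 difference -0.13, edgeR adjusted p = 0.0163). ITGB5, its vitronectin-binding partner, had 24.5 (E2) and 24.4 RPKM (control) in AGS, against 18.3 (E2) and 16.7 RPKM (control) in HGC-27 and was higher in AGS by 0.49 ± 0.06 (SE). ITGB6, the epithelial partner of ITGAV that activates latent TGF-beta (ENSG00000115221, chromosome 2, 160099666 to 160200313, minus strand), had 549 (E2) and 403 counts (control) in AGS, against 0 (E2) and 4 counts (control) in HGC-27. Its log2 difference of 7.80 ± 0.33 (SE) rests on 4 counts in 1 HGC-27 library: the fitted value was 11.86 without the HGC-27 control library, which leaves that line at 0 counts and the value dependent on the prior count, and 6.95 without the HGC-27 estradiol library. Of its exon bases, 20.6% are shared with AC092153.1 on the same strand, which was listed at 0 in all libraries. Whether reads of the shared bases were counted for ITGB6 is not known either. ITGB8, the other activator of latent TGF-beta, had 123 (E2) and 152 counts (control) in AGS, against 146 (E2) and 135 counts (control) in HGC-27, which overlapped after scaling (log2 difference -0.03 ± 0.21 (SE), edgeR adjusted p = 0.906).

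The fibronectin-binding alpha chains ITGA5 and ITGA4 were lower in AGS. ITGA5 (ENSG00000161638, chromosome 12, 54395261 to 54419460, minus strand), whose pair with ITGB1 is the classical fibronectin receptor, had 6.59 (E2) and 6.22 RPKM (control) in AGS, against 21.7 (E2) and 17.5 RPKM (control) in HGC-27, a log2 difference of -1.61 ± 0.06 (SE). ITGA4 (ENSG00000115232, chromosome 2, 181457202 to 181536187, plus strand), which binds fibronectin and VCAM1 and is best known from leukocytes and neural crest cells, had 0 (E2) and 0 counts (control) in AGS, against 1566 (E2) and 1691 counts (control) in HGC-27. Its level in HGC-27 was 7.93 RPKM with estradiol and 7.4 RPKM in the control, and AGS was at least 541-fold lower in mean CPM, with 3 counts per library as the floor. ITGA8 and ITGA9, receptors of nephronectin and tenascin, had at most 15 counts in any library. ITGA8 had 0 counts in both AGS libraries and in the HGC-27 estradiol library and 5 in the HGC-27 control library, and ITGA9 did not pass the test.

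The chains known from blood cells were low, with the exceptions of ITGA4 in HGC-27 and of ITGAE, which passed 1 RPKM in both lines. ITGAL, the alpha chain of the lymphocyte receptor for ICAM1, had 0 counts in all 4 libraries, which allows up to 0.104 to 0.12 CPM per library for counting error alone. ITGB2, the shared beta chain of leukocytes, had 17 (E2) and 21 counts (control) in AGS, against 53 (E2) and 75 counts (control) in HGC-27, and passed as lower in AGS (-1.72 ± 0.41 (SE)). ITGAX had 28 (E2) and 28 counts (control) in AGS, against 52 (E2) and 49 counts (control) in HGC-27, and passed narrowly as lower in AGS (edgeR adjusted p = 0.048), a call lost in DESeq2, with RLE scaling, and without the HGC-27 control library or either estradiol library (edgeR adjusted p = 0.0577 to 0.202). ITGAD had 0 (E2) and 0 counts (control) in AGS, against 24 (E2) and 14 counts (control) in HGC-27, at least 6.45-fold lower in AGS, and ITGAM had 1 to 11 counts per library. ITGA2B, the platelet receptor chain, had 10 (E2) and 8 counts (control) in AGS, against 48 (E2) and 21 counts (control) in HGC-27, and passed as lower in AGS with all libraries but not without the HGC-27 estradiol library (log2 difference -1.89 in the full fit and -1.11 without it, edgeR adjusted p = 0.261), and the value was -2.51 without the HGC-27 control library. Its partner ITGB3 had 0 (E2) and 0 counts (control) in AGS, against 20 (E2) and 8 counts (control) in HGC-27. Of the 31-base stretches of ITGB3, 56.4% are shared with the overlapping gene AC068234.1, which was listed at 0, and whether shared reads were counted for ITGB3 is not known. ITGB7 had 34 (E2) and 26 counts (control) in AGS, against 40 (E2) and 28 counts (control) in HGC-27, and did not pass, and 42.1% of its exon bases lie opposite ZNF740, which had 1153 to 1839 counts per library. ITGAE, the chain of intraepithelial lymphocytes, was the best measured of this group, with 1.93 (E2) and 2.01 RPKM (control) in AGS, against 1.61 (E2) and 1.58 RPKM (control) in HGC-27. It passed as higher in AGS by 0.30 ± 0.14 (SE) (edgeR adjusted p = 0.0367), but not in DESeq2 or limma-voom, not with library totals, and not without either control library or without the HGC-27 estradiol library (edgeR adjusted p = 0.0568 to 0.124).

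Leukocyte, platelet and endothelial markers are given beside these chains. Of 9 leukocyte markers, 2 passed the filter and the list's summed level was 4.12 and 2.96 CPM in the estradiol and control libraries of AGS, against 5.0 and 4.94 CPM in those of HGC-27. CD3E and TYROBP had 0 counts in all libraries, and PTPRC had at most 22. CORO1A had 48 (E2) and 21 counts (control) in AGS, against 90 (E2) and 115 counts (control) in HGC-27, and CSF1R had 47 (E2) and 45 counts (control) in AGS, against 7 (E2) and 7 counts (control) in HGC-27. Of 6 platelet markers, PF4, PPBP, GP9 and TREML1 were at 0 in all libraries, and GP1BA carried most of the sum, with 48 (E2) and 44 counts (control) in AGS, against 117 (E2) and 148 counts (control) in HGC-27. Of 6 endothelial markers, KDR was at 0 in all libraries and none had more than 21 counts. The summed levels in the estradiol and control libraries were 2.1 and 2.0 CPM in AGS, against 6.6 and 5.84 CPM in HGC-27 for platelet markers, and 0.362 and 0.269 CPM in AGS, against 1.36 and 1.11 CPM in HGC-27 for endothelial markers. ITGAM and ITGA2B are themselves on the leukocyte and platelet lists.

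Pairing the subunits showed which known receptors and trimers had all their chains transcribed. An assembly was counted as measured in a line when each of its chains reached 1 RPKM in both libraries, which describes transcripts and not assembled protein. Of 24 known integrin pairs, 9 were measured in AGS and 8 in HGC-27, with 6 in both. ITGA2 with ITGB1, ITGA6 with ITGB4 and ITGAV with ITGB6 were measured in AGS alone, and ITGA1 with ITGB1 and ITGA4 with ITGB1 in HGC-27 alone. The lowest chain of ITGA6 with ITGB4 was ITGB4 in both lines, at a mean of 54 RPKM in AGS and 0.171 RPKM in HGC-27. ITGA1 with ITGB1 lay just past the line in HGC-27, where ITGA1 averaged 1.18 RPKM. The shared pairs were those of ITGB1 with ITGA3, ITGA5, ITGA6, ITGA7 and ITGAV, and ITGAV with ITGB5.

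Of the 12 laminin trimers scored, 4 were measured in AGS and 8 in HGC-27, with 4 in both. No trimer with LAMB3 was among those scored, so these counts do not cover assemblies of that chain and do not compare the full sets of the lines. The 4 trimers of LAMA1 or LAMA2 with LAMB1 or LAMB2 and LAMC1 were measured in HGC-27 alone. The lowest chain was LAMA1 at 6.77 RPKM in both LAMA1 trimers, LAMA2 at 13.8 RPKM with LAMB1, and LAMB2 at 8.57 RPKM with LAMB2. Trimers of LAMA3 or LAMA5 with LAMB1 or LAMB2 and LAMC1 were measured in both lines. Those with LAMA4 or LAMC3 were measured in neither.

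**Figure D3:**
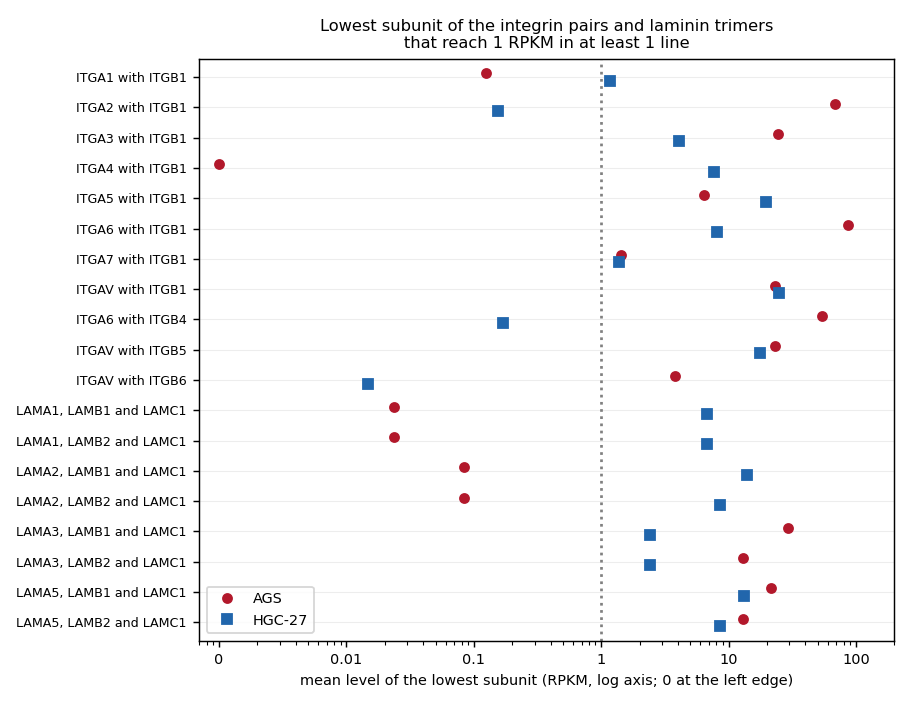
Mean level of the lowest chain, in RPKM on a log axis, for the integrin pairs and laminin trimers that reached 1 RPKM (dotted line) in at least 1 line, with circles for AGS and squares for HGC-27. The AGS and HGC-27 points stand on opposite sides of the line for 5 integrin pairs and 4 laminin trimers.

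The make-up of the integrin alpha and beta and the laminin alpha and beta classes differed between the lines and was steady between the libraries of a line. Shares are percentages of the summed RPKM of a class. ITGA6 was the leading alpha chain of AGS, with 39.6% (E2) and 41.4% (control) in AGS, against 11.5% (E2) and 11.8% (control) in HGC-27. ITGA2 made up 32.9% (E2) and 31.6% (control) in AGS, against 0.176% (E2) and 0.275% (control) in HGC-27. ITGAV, the leading alpha chain of HGC-27 with the deposited gene length, made up 10.8% (E2) and 11% (control) in AGS, against 34.6% (E2) and 36.9% (control) in HGC-27. ITGA5 made up 3.04% (E2) and 2.98% (control) in AGS, against 30.1% (E2) and 26.2% (control) in HGC-27. The order of ITGAV and ITGA5 in HGC-27 depends on the length used. ITGA5 has 7577 deposited bases and 4444 in its longest coding transcript, and ITGAV has 8211 and 7030. With the longest coding transcript, ITGA5 would lead in each HGC-27 library. Of the beta chains, ITGB1 held 58.1% (E2) and 59.9% (control) in AGS, against 83.4% (E2) and 84.7% (control) in HGC-27, and ITGB4 27.7% (E2) and 25.7% (control) in AGS, against 0.12% (E2) and 0.17% (control) in HGC-27. Among laminin alpha chains, LAMA3 led in AGS with 57.5% (E2) and 58.1% (control) in AGS, against 6.78% (E2) and 6.44% (control) in HGC-27. LAMA2 made up 0.138% (E2) and 0.19% (control) in AGS, against 37.1% (E2) and 39.2% (control) in HGC-27, and LAMA5 was a large share in each line, with 42.3% (E2) and 41.6% (control) in AGS, against 38.1% (E2) and 34.9% (control) in HGC-27. Among laminin beta chains, LAMB3 held 50.03% (E2) and 49.3% (control) in AGS, against 0.141% (E2) and 0.124% (control) in HGC-27.

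**Figure D4:**
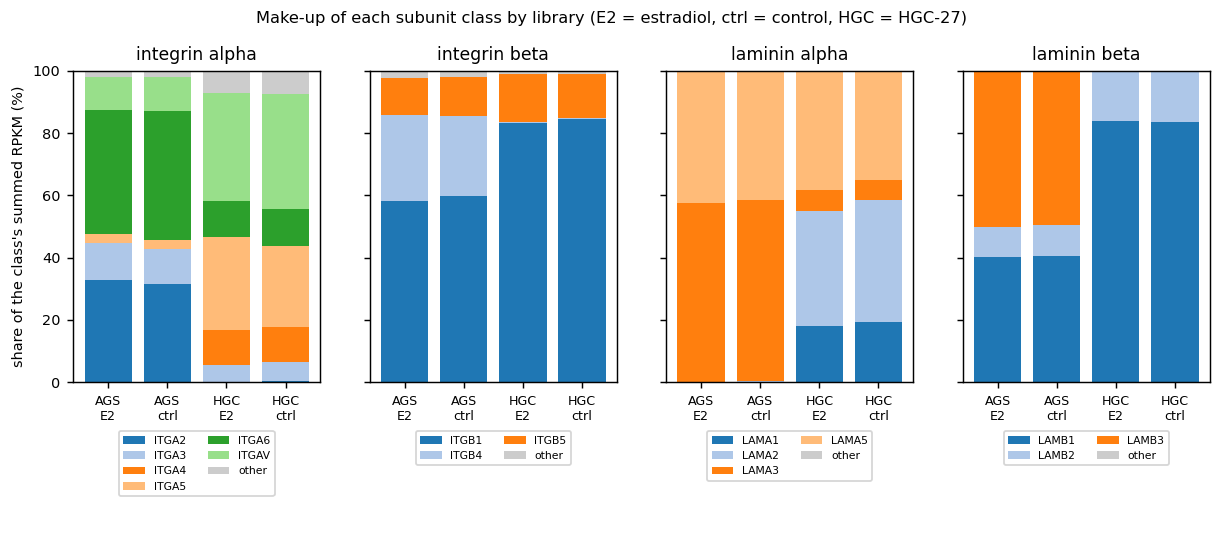
Share of each chain in the summed RPKM of its class, in percent, with 1 stacked bar per library (E2 is estradiol, ctrl control, HGC the line HGC-27); chains below 3% in every library are pooled as other. The 2 bars of a line are alike in each class shown, and LAMB3, ITGA2 and ITGB4 appear as broad bands in AGS alone.

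The alpha chains that can pair with ITGB1 summed to more than ITGB1 in AGS and to less in HGC-27. The ratio of the 12 alpha chains over ITGB1, in RPKM, was 1.79 and 1.74 in the estradiol and control libraries of AGS, against 0.705 and 0.651 in those of HGC-27. ITGA6 and ITGAV are counted in it and also pair with other beta chains. With the length of the longest coding transcript in place of the deposited gene length, an alternative chosen after the data were seen, the ratios were 1.39 and 1.35 in AGS, against 0.657 and 0.601 in HGC-27. Within the hemidesmosomal pair, ITGB4 over ITGA6 was 0.668 and 0.588 in the estradiol and control libraries of AGS, against 0.0172 and 0.0253 in those of HGC-27.

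Partners of these chains were read from lists, whose counts stand beside 77.2% of all genes called between the lines, 35.7% higher and 41.5% lower in AGS. Of 4 hemidesmosome genes, 3 (COL17A1, PLEC and, narrowly, DST) were higher in AGS. COL17A1, the transmembrane collagen of hemidesmosomes, had 953 (E2) and 824 counts (control) in AGS, against 1 (E2) and 4 counts (control) in HGC-27, and PLEC, the plectin that links ITGB4 to keratin, differed by 1.08 ± 0.05 (log2 difference ± SE, as for the partners that follow). CD151, COL18A1, NID2, DAG1 and DST lie outside the naming rule, and their values were known when they were picked. CD151, the tetraspanin partner of laminin-binding integrins, did not pass (-0.01 ± 0.06). Of 10 basement membrane partners of laminin, 8 were higher and 1 lower in AGS (COL18A1, a source of endostatin), and NID2 did not pass. HSPG2 (perlecan) had 590.1 (E2) and 529 CPM (control) in AGS, against 78.1 (E2) and 67.6 CPM (control) in HGC-27, and NID1, which bridges laminin and type IV collagen, had 1382 (E2) and 1401 counts (control) in AGS, against 223 (E2) and 235 counts (control) in HGC-27. Of 5 other laminin receptors, 3 were higher and 2 lower in AGS. The dystroglycan gene DAG1 differed by 1.66 ± 0.05. BCAM, a receptor of LAMA5, differed by 3.43 ± 0.07, the syndecan SDC4 by 2.58 ± 0.06, SDC1 by -0.20 ± 0.06 and RPSA, also a ribosomal protein, by -0.60 ± 0.05.

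Of 23 genes of focal adhesion and integrin activation, 15 were higher and 4 lower in AGS, beside the 35.7% and 41.5% of all genes. TNS4, a tensin that binds the tail of ITGB1, had 26845 (E2) and 21923 counts (control) in AGS, against 13 (E2) and 2 counts (control) in HGC-27, and PARVB had 429 (E2) and 366 counts (control) in AGS, against 10 (E2) and 19 counts (control) in HGC-27. FERMT2, a kindlin, had 0 (E2) and 0 counts (control) in AGS, against 3512 (E2) and 4059 counts (control) in HGC-27, at least 1254-fold lower in AGS. TNS2 (-3.34 ± 0.11) was also lower, as were VCL and LIMS2, named after their values were seen (-0.70 ± 0.05 and -4.30 ± 0.61). The other kindlins, FERMT1 and FERMT3, were likewise named after their values were seen. FERMT1 was higher in AGS, with 153 (E2) and 150.1 CPM (control), against 21.5 (E2) and 21.0 CPM (control) in HGC-27. FERMT3 did not pass. Of 14 integrin ligands other than laminins, 3 were higher and 10 lower in AGS. VTN, vitronectin, and ICAM1, the ligand of leukocyte integrins, were higher in AGS (6.66 ± 0.16 and 9.51 ± 0.18), and so was THBS1 (0.48 ± 0.08), the thrombospondin gene, which the naming rule left out. COL3A1 had 0 (E2) and 5 counts (control) in AGS, against 63740 (E2) and 69721 counts (control) in HGC-27, and FBLN5 had 0 (E2) and 0 counts (control) in AGS, against 889 (E2) and 1021 counts (control) in HGC-27. Chosen after their values were seen, 3 further ligands were read beside their receptors. FN1, the ligand of ITGA5, had 52 (E2) and 46 counts (control) in AGS, against 1729 (E2) and 1673 counts (control) in HGC-27. VCAM1, the ligand of ITGA4, had 0 (E2) and 0 counts (control) in AGS, against 718 (E2) and 813 counts (control) in HGC-27, so that receptor and ligand were both at 0 in AGS. NPNT, the ligand of ITGA8, had 5 (E2) and 4 counts (control) in AGS, against 2830 (E2) and 3324 counts (control) in HGC-27, while ITGA8 itself was at or near 0 in every library. FN1, COL1A1, COL1A2 and COL3A1 are also on the mesenchymal or fibroblast marker lists.

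The second comparison asked whether estradiol changed the subunits, with the line as a block. None of the 31 tested members had an edgeR adjusted p under 0.05, beside 0.153% of all genes. An unadjusted p under 0.05 was found for 4 members (LAMA5, ITGA5, LAMA3 and ITGB4), and for 3.24% of all genes. DESeq2 called 0 members with 2 under an unadjusted 0.05, and limma-voom 0 with 2. The smallest adjusted p-values in edgeR were 0.153 for LAMA5 (log2 change 0.19 ± 0.05 SE, n = 2 lines) and 0.254 for ITGA5 (0.21 ± 0.06). The median fitted log2 change of the tested members was 0.05, beside -0.00 for all genes. Of the 5 partner lists, 0 members passed the test with estradiol.

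Within a line there is 1 library per treatment and no test, and the log2 ratio of estradiol over control, after scaling for library size, is given with an exact 95% counting interval, which covers counting error only. In AGS, 18 members had a mean of at least 100 counts, and the interval lay above 0 for 9 (ITGA2, ITGA3, ITGA7, ITGB4, ITGB6, LAMA3, LAMA5, LAMB3 and LAMC1) and below 0 for 1 (ITGB8). Over all genes of that depth the interval lay above 0 for 14.2% and below for 15.5%. The ratios were small, from -0.39 (ITGB8) to 0.36 (ITGB6), with a median of 0.07. ITGB6 had 549 counts in the estradiol and 403 in the control library of AGS, a ratio of 0.36 (0.17 to 0.55). ITGB4 had 10715 counts in the estradiol and 8916 in the control library of AGS, a ratio of 0.18 (0.14 to 0.22). LAMA3 stood at 0.11 (0.07 to 0.15) and LAMB3 at 0.06 (0.01 to 0.10). ITGB8 had 123 counts in the estradiol and 152 in the control library of AGS, a ratio of -0.39 (-0.75 to -0.04). ITGA6, the partner of ITGB4, stood at -0.01 (-0.04 to 0.02), an interval that holds 0. ITGB1 stood at 0.02 (-0.01 to 0.05).

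In HGC-27, 18 members had that depth, and the interval lay above 0 for 5 and below 0 for 0, beside 10.8% and 14.6% of all genes of that depth. ITGA5 had 4104 counts in the estradiol and 3827 in the control library of HGC-27, a ratio of 0.31 (0.25 to 0.38). LAMA5 had 5126 counts in the estradiol and 5037 in the control library of HGC-27, a ratio of 0.24 (0.18 to 0.29). The others were LAMA3 at 0.18 (0.05 to 0.32), ITGB5 at 0.13 (0.06 to 0.20) and ITGA4 at 0.10, whose lower bound was just above 0. ITGB8, which was lower with estradiol in AGS, had the highest ratio of the 18 in HGC-27. It stood at 0.32 (-0.02 to 0.67), an interval that holds 0. The laminin chains found in HGC-27, LAMA1 and LAMA2, stood at 0.01 (-0.07 to 0.08) and 0.03 (-0.03 to 0.10). Members were read more deeply than other genes, which narrows their intervals: the median of their mean counts was 7322 in AGS and 2263 in HGC-27, beside 1106 and 972 for all genes of at least 100 counts. The part of depth in the counts of intervals was not tested.

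Among the 14 members with at least 100 mean counts in both lines, the intervals excluded 0 in the same direction for 2, LAMA3 and LAMA5, beside 3.16% of all genes of that depth. LAMA5 had 8858 counts in the estradiol and 7537 in the control library of AGS, a ratio of 0.14 (0.10 to 0.19), and its interval in HGC-27 lies higher with little overlap. The intervals of 0 members excluded 0 in opposite directions, beside 4.86% of all genes of that depth. Whether the response to estradiol differs between the lines could not be tested, since a model with that term leaves no residual degree of freedom.

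**Figure D5:**
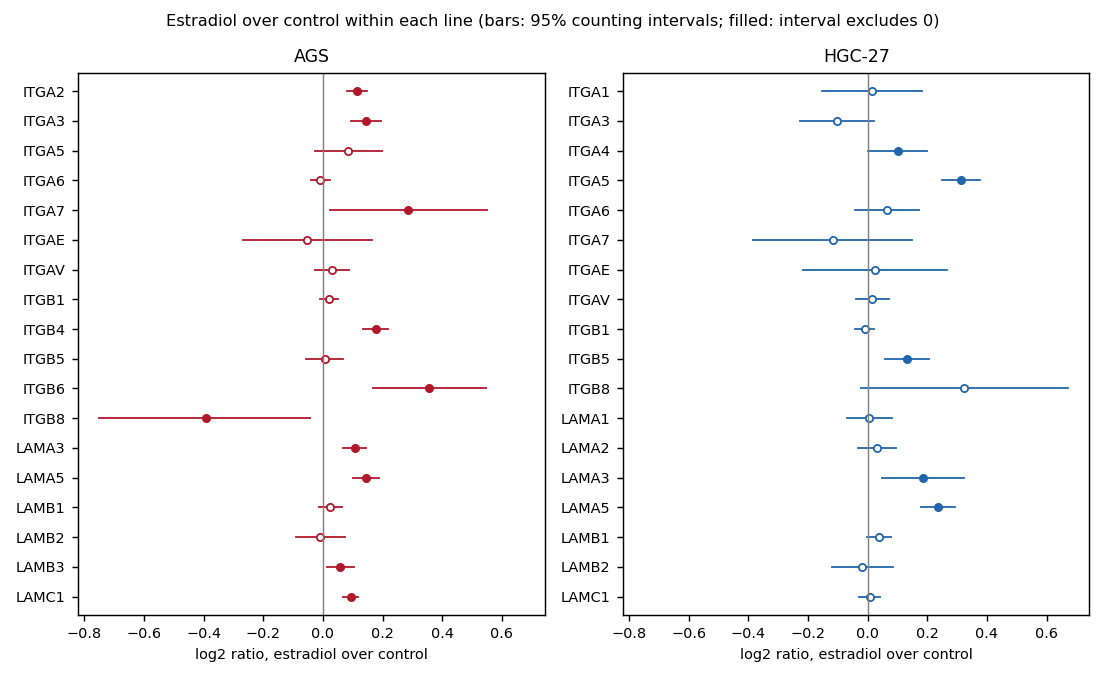
Log2 ratio of estradiol over control in AGS (left) and HGC-27 (right) for members with a mean of at least 100 counts in the line; bars are 95% counting intervals and filled points have an interval that excludes 0. The points lie between -0.39 and 0.36, with LAMA3 and LAMA5 filled on both sides.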

How the data were processed

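RNA was sequenced from AGS and HGC-27 cells with estradiol or without it, 1 library each. The deposited gene table holds raw counts per gene. Alignment with HISAT2 and counting with featureCounts are named in the submitters' processing notes, and their versions, the strand setting and the treatment of reads with several matches are not given in the sources used here. Those notes name the build hg18, but the coordinates of 35 of the 37 members described in the deposited table equal those of GENCODE release 29 on GRCh38, so coordinates are printed as the table gives them. The table's gene length column was used for RPKM.

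Counts were analysed with edgeR 4.0.16 (R 4.3.3) over all 18278 genes that passed its filter on low counts, with TMM scaling, terms for line and treatment, and Benjamini-Hochberg adjustment over all of them, with a threshold of 0.05. The fit has 1 residual degree of freedom per gene, and the biological coefficient of variation was 4.59%. The line is the block of the estradiol comparison: libraries of a line correlated at 0.997 on log CPM, against 0.777 to 0.781 between lines. DESeq2 1.42.0 and limma-voom (limma 3.58.1) were alternatives. Fits that leave out 1 library drop the treatment term and take each gene's spread from the line with 2 libraries. The lone library is thus assumed to vary like the other line. Those 2 libraries are 1 estradiol and 1 control library, so their spread includes any treatment difference. The lone library has 1 treatment only, so the fitted line difference can include part of a treatment difference. A lost call also reflects fewer libraries. Within a line, exact conditional binomial intervals with 0.5 counts added in the ratio cover counting error only. Shared sequence was counted as stretches of 31 bases found in transcripts of other genes, and exon overlap was read from GENCODE release 29. Members with a mean of at least 100 counts in a line are given in full, and from each partner list up to 4 genes with a mean CPM of at least 5 are named, the 2 largest called differences in each direction. Of the 38 members that the rule finds, 1 is not reported here, nor is 1 gene of the leukocyte list, and both are left out of all counts, sums and assemblies. The members and lists were chosen with earlier results of these data known.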

Additional observations from a re-analysis of the deposited data

How the results depend on the processing

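Under 11 alternatives of the line comparison, 320 of 340 results for single members kept their direction and side of the threshold, 13 lost the call, 2 gained it (ITGAV with library totals and ITGA10 in limma-voom) and 0 called differences reversed. The other 5, of ITGA7, ITGB8 and ITGB7, were not called and changed sign without an estradiol library. ITGAD, called in the full fit, has no result without the HGC-27 estradiol library, where it fell below the filter on low counts. The number of called members ran from 20 to 26 when 1 library was left out, with the lowest value without the HGC-27 estradiol library. For estradiol, 0 members were called under each of 7 alternatives (211 of 217 single results kept their sign), including the fit without the replicate block (the line), which also called 0 of all genes. Over all genes the number called with estradiol was 28, against 1 in DESeq2, 13 with library totals, 0 in limma-voom and 17 with a robust prior on the spread; the cause was not tested. The assembly counts held with control libraries alone, with library totals and with the longest coding transcript. Leaving out a library leaves no residual degree of freedom for estradiol, so no test was possible. Members under 100 counts are limited by depth.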
